A study of Homo sapiens with 10 samples.

Results

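Interferon-stimulated genes are the genes that cells switch on when interferon binds its receptors, and their levels were measured here in neuroblastoma cell lines exposed to BG-P1600-TAT. The list holds 39 well-known members of this response, and members were found as the probe sets whose gene symbol in the platform annotation was on the list. A probe set was found for 38 of the 39, each with 1 probe set, out of 17709 probe sets with a gene symbol and 21448 tested; STAT2 was not analysed here. Gene expression was read on 10 whole-transcript arrays of SK-N-AS and SK-N-FI, both established human neuroblastoma lines. The 3 treated SK-N-AS arrays (numbered 28, 29 and 30) and the 2 treated SK-N-FI arrays (1 and 2) came from cells exposed for 48 h to 30 µM of BG-P1600-TAT, a polymer conjugate that, per the title of the series, targets the norepinephrine transporter together with integrin αvβ3. The 3 control SK-N-AS arrays (25, 26 and 27) and the 2 control SK-N-FI arrays (1 and 2) came from cells kept in PBS for the same time. The SK-N-AS titles write the compound as BG-P-TAT, read here as the same conjugate. The labels list no added interferon in any group. A difference between SK-N-AS and SK-N-FI concerns these lines alone. Whether each SK-N-AS array had its own culture is not given by the labels. All p-values that use these arrays, within that line and between the lines, therefore rest on array spread that may be technical.

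Type I interferon binds a receptor made of IFNAR1 and IFNAR2, whose kinases TYK2 and JAK1 pass the signal on. A complex that holds IRF9 then binds the interferon-stimulated response element in the promoters of the genes described here. Interferon-γ uses its own receptor with JAK1 and JAK2 and acts mainly on the gamma-activated site. Many products of these genes block a step of viral growth, and many cells keep some of them at a resting level without added interferon.

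The arrays were first checked for signal and for the line labels. Between 36.2% and 39.7% of the 21448 tested probe sets in treated SK-N-AS arrays and between 32.9% and 39.3% in control SK-N-AS arrays lay above the 95th percentile of the array's own negative control probe sets, against 38.3% and 42.7% in treated and 42.9% and 44.3% in control SK-N-FI arrays. That percentile is the threshold meant by "above the negative controls". Of 7 noradrenergic neuroblastoma markers, 4 were above it on every SK-N-AS array and 6 on every SK-N-FI array, and of 8 mesenchymal markers 5 and 3 were. DBH and PHOX2A, defining noradrenergic genes, were below it on all 6 SK-N-AS arrays. HAND2, GATA3, ISL1 and CHGA, of the same list, were above it on every array of both lines, and TH was on none. Of 6 leukocyte markers, CD68 was above it on every SK-N-AS array and PTPRC on 5 of the 6, while CD3E, CD79A, CD14 and LYZ were above it on none in either line, and none of the 6 was in SK-N-FI. The mean level of the 6 leukocyte markers ranged from 6.89 to 6.95 in treated and from 6.87 to 7.09 in control SK-N-AS arrays, against 5.36 to 5.78 in treated and 5.22 to 5.44 in control SK-N-FI arrays. Of 4 fibroblast markers, 3 were above the negative controls on every SK-N-AS array and 2 on every SK-N-FI array, and their mean ranged from 8.54 to 8.81 in treated and from 8.69 to 8.98 in control SK-N-AS arrays, against 7.73 to 7.87 in treated and 7.70 to 7.92 in control SK-N-FI arrays. PDGFRA was at least 23.3-fold higher in treated and 27.8-fold in control SK-N-AS arrays when quantile normalized (9.17-fold and 11.5-fold on deposited values), THY1 was lower in SK-N-AS on each scaling, and COL1A1 was below the negative controls on all 10 arrays. In bulk RNA, fewer cells with a transcript and less of it per cell cannot be told apart, and the part of these markers in the results below was not tested.

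The lines differed in how many members gave a signal. In SK-N-AS, 14 of 38 members were above the negative controls on all 6 arrays and 14 on none, and in SK-N-FI 10 of 38 were above them on all 4 arrays and 25 on none. Over all 21448 probe sets, 30.9% were above them on every SK-N-AS array and 38.1% on every SK-N-FI array. Only 6 members were above them on all 10 arrays: IFIT5, OAS1, OAS3, EIF2AK2, PARP9 and IFI6. At the stricter 99th percentile of the negative controls 0 members were above on all 10 arrays, 2 on every SK-N-AS array and 3 on every SK-N-FI array, and 27 were above on none, so these counts rest on the threshold. At the 95th percentile a further 12 were below them on every array, between 2.52 and 7.24 in log2 signal: OAS2, OASL, ISG20, MX1, IFI27, ISG15, USP18, HERC6, TRIM22, IFI44L, RSAD2 and XAF1. ISG15, RSAD2 and USP18, commonly used readouts of an ongoing interferon response, were thus not measured above background in any group. For these 12 a difference describes a signal at background and says little about the transcript.

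The lines differed in which members they carried. GBP2, IFITM1, IFITM2, IFITM3, BST2, DDX60, HERC5, IFI35 and CMPK2 were among those higher in SK-N-AS, and MX2, IFI16 and SAMD9 among those lower in it. IFIT1 was also called lower in SK-N-AS, but was above the negative controls on treated SK-N-FI array 2 alone. The deposited values run on different scales in the lines: subtracting SK-N-FI from SK-N-AS, the median log2 difference over all tested probe sets was -0.62 in treated and -0.61 in control arrays. The lines were therefore compared on values quantile normalized over all 10 arrays, where that median was 0.02 and 0.03, and the deposited values are given beside them. Neither scaling aligned the negative controls. Their 95th percentile was 7.23 to 7.96 in SK-N-AS against 6.73 to 7.38 in SK-N-FI arrays when quantile normalized, and 6.75 to 7.23 against 7.44 to 8.26 on deposited values. For members near background, a line difference therefore moves with the background of the scaling. The lines were also separate sets of arrays, and an effect of the set and one of the line cannot be told apart.

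On quantile-normalized values, limma called 26 of 38 members between treated arrays, where it called 45.5% of all probe sets, 21 higher and 5 lower in SK-N-AS, where 23.4% of all probe sets were called higher and 22.2% lower. Between control arrays it called 24, where it called 46.7% of all probe sets, 19 higher and 5 lower, against 23.9% and 22.8% of all probe sets. On deposited values the split was 14 higher and 9 lower among the members in either comparison, against 11.2% higher and 47.8% lower of all probe sets in treated arrays and 11.5% and 47.8% in control arrays. Called in the same direction in all 4 fits, treated and control arrays on each scaling, were 19 members, of which 14 were higher and 5 lower in SK-N-AS, beside 9.09% and 18.9% of all probe sets. The treated and control comparisons use different arrays and a shared estimate of the spread. The median log2 difference of the 38 members was 0.99 in treated and 0.89 in control arrays on quantile-normalized values, and 0.18 and 0.09 on deposited values, so the list's median moved with the scaling and lay above that of all probe sets on each. The 19 members are the base of the description that follows, since their direction holds on each scaling. Requiring a call on both scalings was not planned and was added after seeing the data. The planned line comparison was the quantile-normalized one.

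**Figure D1:**
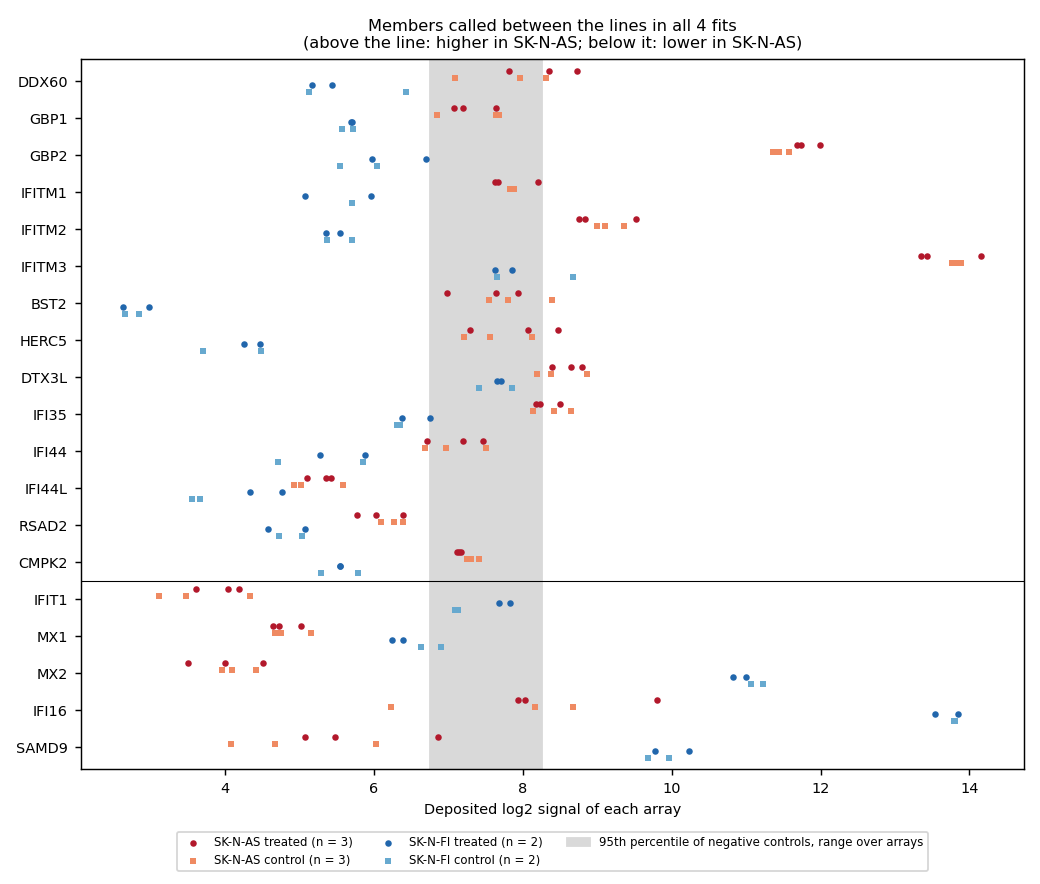
Deposited log2 signal of the 19 members called between the lines in all 4 fits, with a point for each array (SK-N-AS treated and control, SK-N-FI treated and control). The grey band spans the negative control thresholds of the 10 arrays; GBP2, IFITM2 and IFITM3 lie right of it in every SK-N-AS array, and MX2, IFI16 and SAMD9 lie right of it in every SK-N-FI array.

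Among the membrane proteins, the IFITM family, which hinders the fusion of enveloped viruses with the cell, stood higher in SK-N-AS. IFITM3 had deposited log2 signals of 14.16, 13.35 and 13.42 in treated and 13.88, 13.77 and 13.84 in control SK-N-AS arrays, against 7.86 and 7.63 in treated and 8.68 and 7.65 in control SK-N-FI arrays, and levels below are on the same scale. In SK-N-FI it was above the negative controls on 3 of the 4 arrays and, apart from control array 1, close to them. The groups lay more than 4 log2 units apart and did not overlap. The difference was 6.97 ± 0.29 in treated and 6.78 ± 0.29 in control arrays (log2, SE; 5.90 and 5.66 on deposited values), with the SK-N-FI side, in treated arrays above all, near background. IFITM2 had 9.51, 8.75 and 8.84 in treated and 8.995, 9.36 and 9.10 in control SK-N-AS arrays, against 5.36 and 5.54 in treated and 5.37 and 5.71 in control SK-N-FI arrays, and IFITM1 had 8.20, 7.66 and 7.63 in treated and 7.88, 7.83 and 7.83 in control SK-N-AS arrays, against 5.07 and 5.96 in treated and 5.71 and 5.70 in control SK-N-FI arrays. Every SK-N-FI array was below the negative controls for IFITM1 and IFITM2, and every SK-N-AS array above them. The difference was 4.49 ± 0.26 in treated and 4.57 ± 0.26 in control arrays (log2, SE; 3.58 and 3.61 on deposited values) for IFITM2 and 3.20 ± 0.27 in treated and 3.09 ± 0.27 in control arrays (log2, SE; 2.31 and 2.14 on deposited values) for IFITM1, and the largest adjusted p of the 4 fits was 2.70e-08 for IFITM3, 2.58e-07 for IFITM2 and 2.98e-05 for IFITM1. These genes have near-identical sequences, and how far their probe sets share signal is unknown here.

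BST2 encodes tetherin, which holds budding viruses at the cell surface. It had 7.94, 7.63 and 6.98 in treated and 8.39, 7.54 and 7.80 in control SK-N-AS arrays, against 2.63 and 2.98 in treated and 2.85 and 2.66 in control SK-N-FI arrays. All 6 SK-N-AS arrays were above the negative controls and all 4 SK-N-FI arrays were far below them. The difference was 5.43 ± 0.36 in treated and 5.92 ± 0.36 in control arrays (log2, SE; 4.71 and 5.16 on deposited values; largest adjusted p of the 4 fits 2.92e-07). IFI6, which guards the endoplasmic reticulum against some viruses, was above the negative controls on all 10 arrays, with 11.15, 10.73 and 10.64 in treated and 10.78, 10.57 and 10.63 in control SK-N-AS arrays, against 11.86 and 11.76 in treated and 11.78 and 11.86 in control SK-N-FI arrays. Its difference had opposite signs on the scalings, at 0.53 in treated and 0.32 in control arrays quantile normalized (adjusted p 0.0617 and 0.238) and at -0.97 and -1.16 on deposited values, so no direction is given for it. IFI27 stayed at background in both lines.

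The GTPases were split between the lines. GBP2, a guanylate-binding protein that attacks vacuoles of intracellular pathogens and is strongly induced by interferon-γ, had 11.74, 11.996 and 11.69 in treated and 11.45, 11.36 and 11.57 in control SK-N-AS arrays, against 6.71 and 5.98 in treated and 5.54 and 6.04 in control SK-N-FI arrays. The SK-N-AS arrays lay far above the negative controls and the SK-N-FI arrays below them. The difference was 6.43 ± 0.24 in treated and 6.49 ± 0.24 in control arrays (log2, SE; 5.47 and 5.67 on deposited values; largest adjusted p 6.91e-09). Measured against the negative control threshold, SK-N-AS was at least 35.9-fold higher in treated and at least 35.6-fold in control arrays, or 14.8-fold and 15.3-fold on deposited values. Such a bound sets the brighter line's mean against the dimmer line's own signal or the threshold, whichever was higher on each array. GBP1, its paralog, was nearer to background at 7.19, 7.64 and 7.08 in treated and 6.85, 7.68 and 7.64 in control SK-N-AS arrays, against 5.70 and 5.70 in treated and 5.57 and 5.72 in control SK-N-FI arrays, with a difference of 2.51 ± 0.29 in treated and 2.65 ± 0.29 in control arrays (log2, SE; 1.61 and 1.75 on deposited values).

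MX2, a dynamin-like GTPase of the nuclear envelope that restricts HIV and herpesviruses, ran the other way. It had 4.51, 3.50 and 4.004 in treated and 3.96, 4.10 and 4.42 in control SK-N-AS arrays, against 10.99 and 10.82 in treated and 11.23 and 11.07 in control SK-N-FI arrays. All SK-N-FI arrays were bright and all SK-N-AS arrays were below the negative controls. The difference was -5.83 ± 0.31 in treated and -5.94 ± 0.31 in control arrays (log2, SE; -6.90 and -6.99 on deposited values; largest adjusted p 4.46e-08), and SK-N-AS was at least 5.43-fold lower in treated and at least 5.84-fold in control arrays, or 16.2-fold and 17.7-fold on deposited values. MX1, its paralog and the better known inhibitor of influenza virus, was called lower in SK-N-AS as well (-0.96 ± 0.24 in treated and -1.23 ± 0.24 in control arrays; log2, SE; -1.52 and -1.91 on deposited values), but all its values lay below the negative controls, between 4.65 and 6.90. When 1 array was left out, the MX1 difference in treated quantile-normalized arrays ran from -1.09 to -0.84.

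Among genes of RNA recognition, DDX60, a helicase-like protein tied to RNA sensing, was higher in SK-N-AS and IFIT1, which binds viral RNA lacking the host cap methylation, was lower. DDX60 had 7.81, 8.36 and 8.73 in treated and 7.09, 8.31 and 7.97 in control SK-N-AS arrays, against 5.16 and 5.43 in treated and 6.43 and 5.13 in control SK-N-FI arrays. The lines did not overlap, and 5 of 6 SK-N-AS arrays but no SK-N-FI array were above the negative controls. The difference was 3.89 ± 0.39 in treated and 2.96 ± 0.39 in control arrays (log2, SE; 3.003 and 2.01 on deposited values; largest adjusted p 0.00132). IFIT1 had 3.61, 4.04 and 4.18 in treated and 3.47, 4.34 and 3.11 in control SK-N-AS arrays, against 7.68 and 7.83 in treated and 7.08 and 7.13 in control SK-N-FI arrays. Only treated SK-N-FI array 2 was above the negative controls, so the called difference (-3.02 ± 0.34 in treated and -2.80 ± 0.34 in control arrays; log2, SE; -3.81 and -3.46 on deposited values) sets a line near the threshold against a line well below it.

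Several members of this role were above the negative controls on all 10 arrays without a direction that held. OAS1 and OAS3, which make the oligoadenylates that activate RNase L, EIF2AK2, the RNA-activated kinase PKR, and IFIT5 were of this kind. EIF2AK2 had 10.23, 10.69 and 11.49 in treated and 9.87, 10.85 and 10.58 in control SK-N-AS arrays, against 12.04 and 12.14 in treated and 11.82 and 12.15 in control SK-N-FI arrays. Its difference was 0.18 ± 0.34 in treated and -0.03 ± 0.34 in control arrays (log2, SE; -1.28 and -1.55 on deposited values), and quantile-normalized values gave no call (adjusted p 0.704 and 0.949). OAS1 had 8.65, 8.73 and 8.29 in treated and 8.69, 7.85 and 8.42 in control SK-N-AS arrays, against 9.60 and 9.70 in treated and 9.99 and 9.52 in control SK-N-FI arrays, and OAS3 had 9.19, 8.56 and 8.21 in treated and 8.76, 8.17 and 8.79 in control SK-N-AS arrays, against 9.13 and 9.15 in treated and 9.55 and 9.09 in control SK-N-FI arrays. On deposited values both were lower in SK-N-AS and on quantile-normalized values both were higher, at 0.57 in treated and 0.23 in control arrays for OAS1 and 1.12 in treated and 0.90 in control arrays for OAS3. The OAS3 call in quantile-normalized control arrays was lost without control SK-N-AS array 25 or 27. In those fits limma called 9420 and 9125 of all probe sets, against 10021 with all arrays. When 1 array was left out, the OAS3 difference ran from 0.84 to 1.38 in treated and from 0.68 to 1.13 in control arrays. IFIT5 had 8.43, 8.78 and 9.21 in treated and 8.03, 8.20 and 8.12 in control SK-N-AS arrays, against 8.53 and 8.69 in treated and 8.57 and 8.69 in control SK-N-FI arrays, and its difference was 1.76 ± 0.23 in treated and 1.05 ± 0.23 in control arrays (log2, SE; 0.19 and -0.52 on deposited values). IFIT3 was called higher in SK-N-AS on quantile-normalized values only (1.16 in treated and 1.53 in control arrays). IFIT2 was likewise called in treated arrays only (1.53), and each was near background. When 1 array was left out, the treated difference ran from 0.95 to 1.37 for IFIT3 and from 1.13 to 2.02 for IFIT2.

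Genes of ISG15 conjugation and ubiquitin-like signalling were carried in part by SK-N-AS. HERC5, the main ligase that attaches ISG15 to proteins, had 7.28, 8.48 and 8.06 in treated and 7.21, 8.12 and 7.56 in control SK-N-AS arrays, against 4.47 and 4.25 in treated and 3.70 and 4.48 in control SK-N-FI arrays. It was above the negative controls on 5 of 6 SK-N-AS arrays and on no SK-N-FI array, while ISG15 itself was below them on all 10. The difference was 4.33 ± 0.38 in treated and 4.26 ± 0.38 in control arrays (log2, SE; 3.58 and 3.54 on deposited values; largest adjusted p 4.74e-06). DTX3L and PARP9 form a complex that joins ubiquitin and ADP-ribose transfer. DTX3L had 8.40, 8.79 and 8.64 in treated and 8.19, 8.86 and 8.38 in control SK-N-AS arrays, against 7.65 and 7.71 in treated and 7.86 and 7.41 in control SK-N-FI arrays, with a difference of 2.34 ± 0.25 in treated and 2.26 ± 0.25 in control arrays (log2, SE; 0.93 and 0.84 on deposited values). PARP9 had 8.98, 8.94 and 8.84 in treated and 8.26, 9.10 and 8.83 in control SK-N-AS arrays, against 9.001 and 9.24 in treated and 9.20 and 9.41 in control SK-N-FI arrays, and its difference of 1.43 ± 0.25 in treated and 1.09 ± 0.25 in control arrays (log2, SE; -0.20 and -0.57 on deposited values) turned sign with the scaling. ISG15, at 5.05 to 5.49 in SK-N-AS and 4.35 to 5.34 in SK-N-FI, was called in treated quantile-normalized arrays alone. The ISG15 call ended without treated SK-N-AS array 28 or 30, where limma called 9082 and 9739 of all probe sets, against 9769 with all arrays. When 1 array was left out, its difference ran from 0.48 to 1.21. IFI27 was likewise called in treated quantile-normalized arrays alone, and not without treated SK-N-AS array 28 or 30. Its difference ran from 0.56 to 1.25 when 1 array was left out.

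Of the remaining members, IFI16 and SAMD9 were lower in SK-N-AS. IFI16 is a nuclear sensor of viral DNA. It had 7.94, 8.03 and 9.80 in treated and 6.23, 8.68 and 8.17 in control SK-N-AS arrays, against 13.84 and 13.53 in treated and 13.79 and 13.81 in control SK-N-FI arrays. The SK-N-FI arrays agreed within 0.31 log2 units, while the SK-N-AS arrays spread over 3.57. The difference was -3.81 ± 0.67 in treated and -4.90 ± 0.67 in control arrays (log2, SE; -5.10 and -6.11 on deposited values; largest adjusted p 0.000637). SAMD9, an antiviral and growth-restraining protein, had 5.08, 5.47 and 6.86 in treated and 4.08, 6.02 and 4.67 in control SK-N-AS arrays, against 10.23 and 9.78 in treated and 9.97 and 9.69 in control SK-N-FI arrays, a difference of -2.91 ± 0.65 in treated and -3.74 ± 0.65 in control arrays (log2, SE; -4.20 and -4.90 on deposited values; largest adjusted p 0.00322). Its neighbour SAMD9L had 6.19, 6.92 and 8.48 in treated and 5.28, 7.45 and 7.18 in control SK-N-AS arrays, against 8.30 and 8.14 in treated and 7.78 and 8.26 in control SK-N-FI arrays, and was not called in any of the 4 fits (adjusted p 0.0878 to 0.913).

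IFI35, CMPK2 and IFI44 were higher in SK-N-AS, CMPK2 and IFI44 at levels close to the threshold. IFI35 had 8.50, 8.18 and 8.23 in treated and 8.41, 8.13 and 8.65 in control SK-N-AS arrays, against 6.38 and 6.75 in treated and 6.31 and 6.35 in control SK-N-FI arrays, a difference of 2.88 ± 0.24 in treated and 3.16 ± 0.24 in control arrays (log2, SE; 1.74 and 2.07 on deposited values). CMPK2, a mitochondrial nucleotide kinase, had 7.14, 7.17 and 7.12 in treated and 7.41, 7.31 and 7.25 in control SK-N-AS arrays, against 5.54 and 5.54 in treated and 5.29 and 5.78 in control SK-N-FI arrays, a difference of 2.47 ± 0.22 in treated and 2.69 ± 0.22 in control arrays (log2, SE; 1.60 and 1.79 on deposited values). IFI44 had 6.72, 7.20 and 7.46 in treated and 6.68, 7.50 and 6.96 in control SK-N-AS arrays, against 5.89 and 5.27 in treated and 4.71 and 5.86 in control SK-N-FI arrays, a difference of 2.42 ± 0.35 in treated and 2.60 ± 0.35 in control arrays (log2, SE; 1.55 and 1.77 on deposited values). None of the SK-N-FI arrays was above the negative controls for any of the 3. RSAD2 (viperin, an antiviral radical enzyme), IFI44L and, on quantile-normalized control arrays, the cell death regulator XAF1 were also called higher, with every value below the negative controls. The XAF1 call ended without control SK-N-AS array 26, where limma called 9717 of all probe sets, against 10021 with all arrays. When 1 array was left out, the quantile-normalized difference ran from 0.81 to 1.33 in treated arrays for IFI44L. That of XAF1 in control arrays ran from 0.70 to 1.02. Among the signalling factors, IRF9 had 6.66, 6.29 and 6.85 in treated and 7.18, 6.14 and 7.03 in control SK-N-AS arrays, against 7.60 and 6.93 in treated and 7.18 and 7.12 in control SK-N-FI arrays, and was not called in any of the 4 fits (adjusted p 0.0938 to 0.363).

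Where a line was below the negative controls on every array of a group, the fitted difference is one of measured signals, and the fold has only a bound, taken as for GBP2. On quantile-normalized values SK-N-AS was higher by at least 5.87-fold in treated and 8.15-fold in control arrays for IFITM2, at least 3.56-fold in treated and 4.79-fold in control arrays for IFI35 and at least 3.56-fold in treated and 3.10-fold in control arrays for DDX60. For HERC5 the bound was at least 2.73-fold in treated and 2.75-fold in control arrays, for IFITM1 at least 2.51-fold in treated and 3.23-fold in control arrays and for BST2 at least 1.99-fold in treated and 3.36-fold in control arrays. On deposited values these bounds were smaller, from 1.08-fold for HERC5 to 3.10-fold for IFITM2 in control arrays, and none could be given for BST2 and IFITM1 in treated arrays. For GBP1, CMPK2 and IFI44 the quantile-normalized bounds were at least 1.70-fold in treated and 2.30-fold in control arrays, at least 1.51-fold in treated and 2.21-fold in control arrays and at least 1.48-fold in treated and 1.78-fold in control arrays, and on deposited values there was none in either comparison. SAMD9 was at least 2.32-fold lower in SK-N-AS in control arrays, or 7.07-fold on deposited values. The bounds for BST2 and HERC5 thus lie far below their fitted differences, while those of GBP2 and MX2 stay above 5-fold on each scaling.

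**Figure D2:**
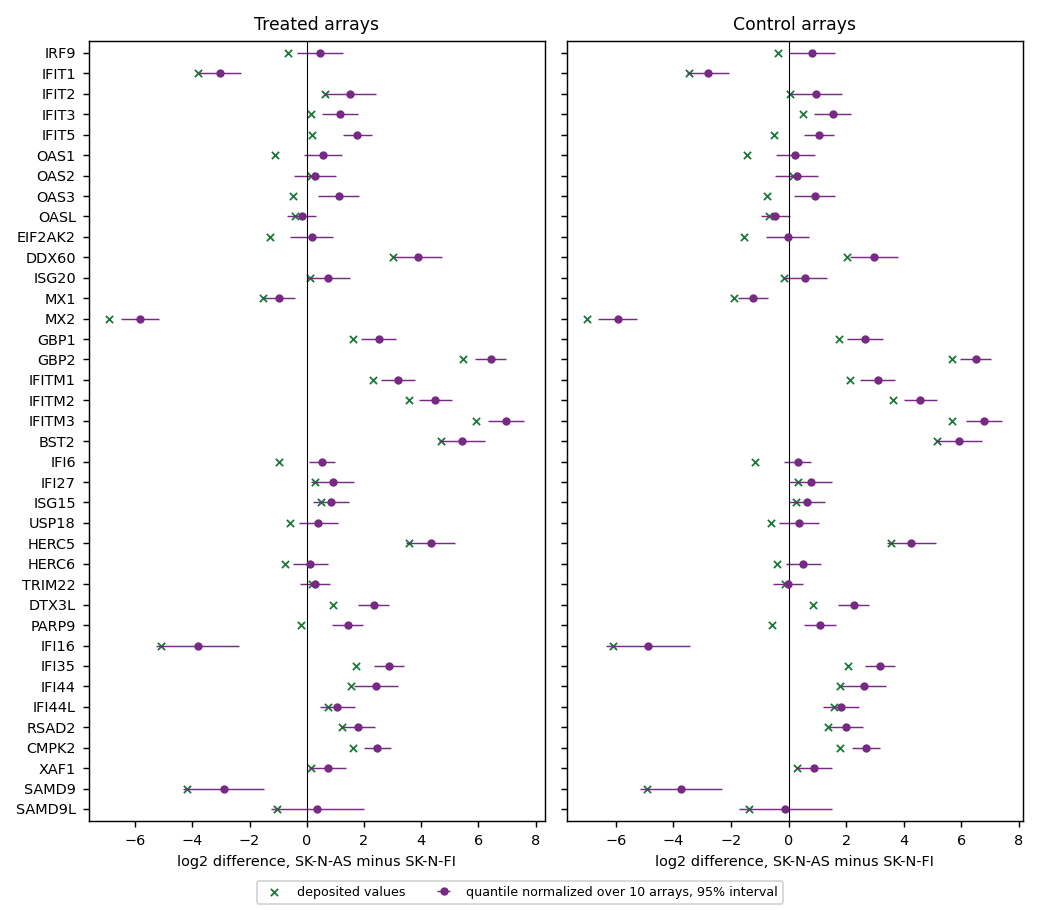
The log2 difference, SK-N-AS minus SK-N-FI, of all 38 members in treated arrays (left) and control arrays (right), with circles and 95% intervals for quantile-normalized and crosses for deposited values. MX2 lies near -6 and GBP2, IFITM3 and BST2 near or above 5 in both panels, and the crosses of OAS3, PARP9 and IFI6 lie on the other side of 0 from their circles.

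Many members sit beside each other in the genome, and some neighbours shared a direction between the lines. Each member was paired with the next member along the chromosome, which gave 14 pairs with at most 1 protein-coding gene between them in RefSeq. Members with another member between them were not paired. Of the 14 pairs, 6 had both genes called in the same direction in all 4 fits, 5 had 1 gene called, 3 had neither and 0 had opposite directions. The same-direction pairs were IFITM2 with IFITM1, IFITM1 with IFITM3, GBP1 with GBP2, IFI44L with IFI44, and CMPK2 with RSAD2, all higher in SK-N-AS, and MX2 with MX1, lower in it. The pairs with 1 called gene were HERC6 with HERC5, PARP9 with DTX3L, SAMD9 with SAMD9L, IFIT3 with IFIT1 and IFIT1 with IFIT5. Among the same-direction pairs, IFI44L, RSAD2 and MX1 lay below the negative controls on every array. The shared direction of their pairs is one of measured signals and says little about these transcripts. For the IFITM pairs, how far the probe sets share signal is unknown here. Pairs that share a gene are not independent, and neighbours were not compared with other neighbouring genes.

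The promoters were searched for the core of the interferon-stimulated response element, the letters GAAA, then any 2 bases, then GAAA, on either strand, in the RefSeq promoter window around the gene start (GRCh38.p14). A match was found in 20 of the 30 members with an entry and in 3.11% of 14250 promoters of the same length of genes on the array. The core of the gamma-activated site, TTCNNNGAA, was found in 7 of the 30 and in 6.93% of all. By line, the response element core stood in 9 of 12 members higher in SK-N-AS in all 4 fits, in 3 of 4 members lower in it and in 8 of 14 others. The 3 lower members were IFIT1, MX1 and SAMD9. MX1 was below the negative controls on every array, and IFIT1 on all but treated SK-N-FI array 2. IFI16 held no match and MX2 had no entry, so for lower members with a clear signal this rests on SAMD9. Among the 9 higher members, IFI44L was also below the negative controls on every array. The 160 bases before the start of 4 members higher in SK-N-AS (BST2, HERC5, DDX60, IFITM3) and of 2 lower in it (IFIT1, SAMD9) are shown 5′ to 3′ to set these against each other, with the response element matches in capitals. Overlapping matches run together, as in BST2 and HERC5.
BST2, chr19:17405631-17405790, minus strand: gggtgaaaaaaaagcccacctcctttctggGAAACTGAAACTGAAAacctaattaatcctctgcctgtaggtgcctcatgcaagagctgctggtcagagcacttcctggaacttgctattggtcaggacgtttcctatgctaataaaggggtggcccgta
HERC5, chr4:88456959-88457118, plus strand: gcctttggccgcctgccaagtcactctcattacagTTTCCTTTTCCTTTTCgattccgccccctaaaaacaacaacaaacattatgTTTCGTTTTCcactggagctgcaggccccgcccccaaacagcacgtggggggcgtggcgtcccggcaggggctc
DDX60, chr4:168318753-168318912, minus strand: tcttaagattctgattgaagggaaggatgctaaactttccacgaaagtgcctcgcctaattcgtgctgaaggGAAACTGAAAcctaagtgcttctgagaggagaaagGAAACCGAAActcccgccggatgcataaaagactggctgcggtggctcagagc
IFITM3, chr11:320861-321020, minus strand: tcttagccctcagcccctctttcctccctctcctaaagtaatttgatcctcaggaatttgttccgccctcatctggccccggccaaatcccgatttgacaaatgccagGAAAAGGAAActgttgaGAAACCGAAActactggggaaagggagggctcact
IFIT1, chr10:89392463-89392622, plus strand: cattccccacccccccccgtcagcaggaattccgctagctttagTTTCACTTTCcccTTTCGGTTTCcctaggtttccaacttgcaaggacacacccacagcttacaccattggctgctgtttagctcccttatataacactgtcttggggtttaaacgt
SAMD9, chr7:93117980-93118139, minus strand: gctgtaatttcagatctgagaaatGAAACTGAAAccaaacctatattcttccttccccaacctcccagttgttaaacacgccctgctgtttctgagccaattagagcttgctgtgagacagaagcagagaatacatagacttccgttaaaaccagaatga
BST2 held 2 overlapping copies of GAAACTGAAA, a letter run that DDX60 and SAMD9 also held, and HERC5 and IFIT1 held their matches on the other strand. A match is a run of letters and does not show that a factor binds there.

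Treatment with the conjugate was then compared with PBS in SK-N-AS. No member was called. Changes of the 38 members ran from -0.39 to 0.90 in log2, 22 were higher and 16 lower in treated cells, and their median was 0.10, beside 0.00 for all probe sets. IFIT5, an RNA-binding member of the IFIT family, had the smallest p: its signal was 8.43, 8.78 and 9.21 in treated arrays 28, 29 and 30 and 8.03, 8.20 and 8.12 in control arrays 25, 26 and 27. Every treated array lay above every control array, by a log2 change of 0.69 (95% interval 0.15 to 1.23), and the change did not pass the test (limma adjusted p = 1.00, n = 3 per group). GBP2 also did not overlap, with 11.74, 11.996 and 11.69 in treated and 11.45, 11.36 and 11.57 in control arrays, a change of 0.35 (-0.10 to 0.80).

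The other named changes in SK-N-AS had overlapping groups. SAMD9 had a log2 change of 0.88 (-0.39 to 2.15), DDX60 of 0.51 (-0.29 to 1.31) and IFI27, at background, of 0.35 (-0.18 to 0.89). None passed (adjusted p = 1.00 by limma). Without arrays 25 and 30, a setting added after seeing the data, SAMD9 changed by -0.070 and DDX60 by -0.055. Both were lowest in control array 25 and highest in treated array 30, so leaving these arrays out was bound to lower their changes. Of the named members, these 2 turned sign and the other 3 did not. For 3 of 38 members the groups were fully apart (IFIT5, GBP2 and, with a change of -0.18, CMPK2), as they were for 7.31% of all probe sets. limma called 0 of 21448 probe sets, which is 0% called, and 1 member had an unadjusted p under 0.05, where 2.6% of all probe sets had. For 28 of the 38 members the 95% interval lay within a 2-fold change in either direction, which for those at background concerns the signal alone.

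In SK-N-FI no member was called either. The 38 members changed by -0.48 to 0.94 in log2, with 19 higher and 19 lower in treated cells and a median of 0.00, beside -0.01 for all probe sets. IFI44L had the smallest p, at 4.76 and 4.34 in treated and 3.66 and 3.55 in control arrays 1 and 2, all below the negative controls. Its change was 0.94 (95% interval 0.39 to 1.49). IFIT1 had 7.68 and 7.83 in treated and 7.08 and 7.13 in control arrays, a change of 0.65 (0.16 to 1.14). Both were higher in each treated than in each control array, and neither passed the test (adjusted p = 1 by limma for both genes, n = 2 arrays a group).

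The next members by p in SK-N-FI were MX1, GBP2 and IFITM3. MX1 changed by -0.45 (-0.96 to 0.07) at background, with no overlap of the groups, and GBP2 by 0.55 (-0.18 to 1.27), which ran between 0.18 and 0.91 when 1 array was left out. IFITM3 changed by -0.42 (-1.22 to 0.38), with 7.86 and 7.63 in treated and 8.68 and 7.65 in control arrays, and by 0.090 without control array 1. None passed (adjusted p = 1 by limma). The groups were fully apart for 6 of 38 members and for 27.8% of all probe sets. limma called 0% of probe sets, and 2 members had an unadjusted p under 0.05, where 2.85% of all had. For 30 of the 38 the 95% interval lay within a 2-fold change.

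The change in SK-N-AS was set against that in SK-N-FI in a fit of all 10 arrays. No member passed the test (limma, 0% of all probe sets called), and 1 of 38 had an unadjusted p under 0.05, where 2.13% of all had. That member was IFI44L, whose difference of changes, SK-N-AS minus SK-N-FI, was -0.82 (adjusted p 1.00). DDX60, at 0.51 in SK-N-AS and -0.48 in SK-N-FI, differed by 0.99, which did not pass the test (adjusted p 1.00). The interval of the difference lay within 2-fold for 9 of 38 members, and was wider for the others.

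**Figure D3:**
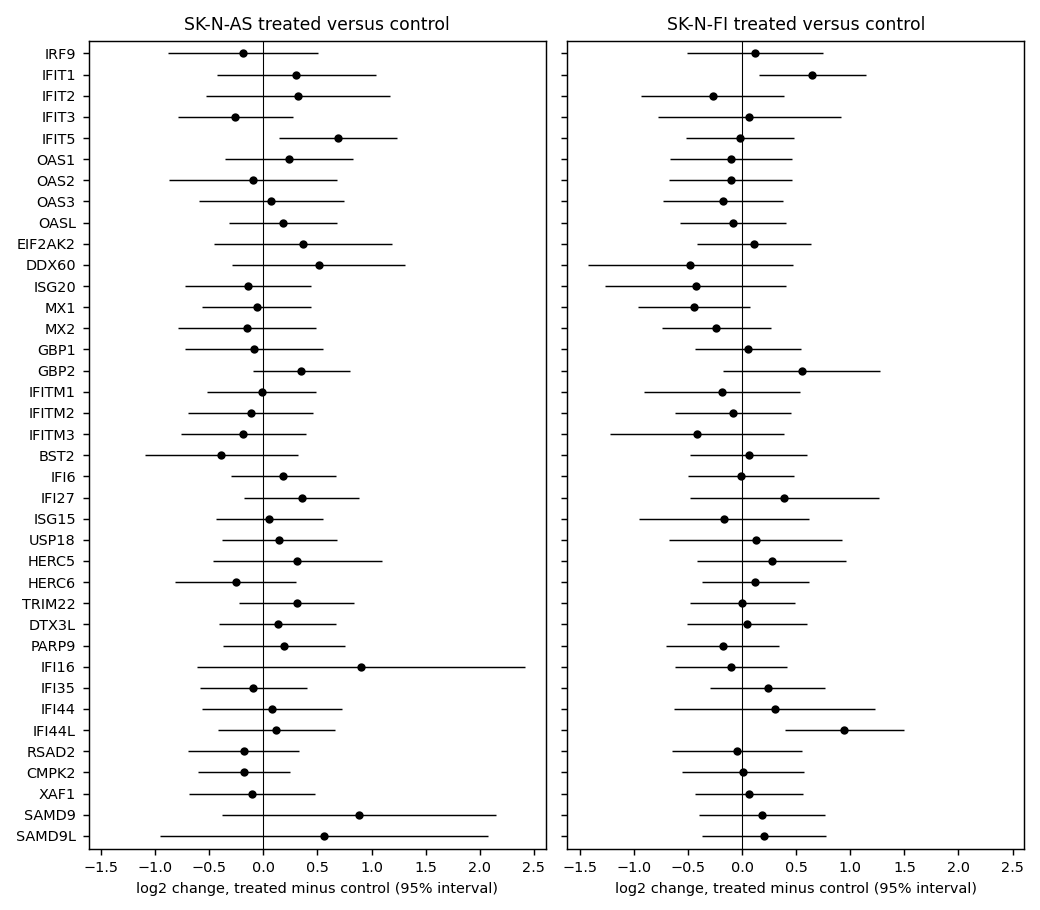
The log2 change with its 95% interval, treated minus control, of the 38 members in SK-N-AS (left, n = 3 per group) and SK-N-FI (right, n = 2 per group). The point estimates lie between -0.48 and 0.94, and the widest intervals are those of IFI16, SAMD9 and SAMD9L in SK-N-AS.

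The widest intervals in SK-N-AS belonged to members that differed within the groups. IFI16 ranged over 3.57 log2 units among the 6 arrays, SAMD9L over 3.20 and SAMD9 over 2.78, against 0.29 for CMPK2 and 0.52 for IFI35. IFI16, SAMD9, SAMD9L, DDX60, EIF2AK2 and IFIT5 were each lowest in control array 25 and highest in treated array 30. That is 6 of 38 members, and 9.43% of all probe sets had the same lowest and highest array. Arrays 25 and 30 are also the ends of the first principal component of the SK-N-AS arrays, which held 50.04% of their variance: its scores were -31.0, 6.71 and 50.6 in treated arrays 28, 29 and 30 and -57.5, 26.9 and 4.33 in control arrays 25, 26 and 27. PTPRC, a leukocyte gene, had 6.92, 7.68 and 9.09 in the treated and 6.01, 8.65 and 7.83 in the control arrays and was likewise lowest in array 25 and highest in array 30. Of the other leukocyte markers, CD68 and CD79A ran the opposite way. They were highest in array 25 (12.42 and 6.53) and lowest in array 30 (11.46 and 5.63), CD79A at background. CD3E, CD14 and LYZ followed neither order. The part of the first principal component in the members' changes was not tested. Array 25 was the lowest for 13 of 38 members, and for 20.4% of all probe sets.

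**Figure D4:**
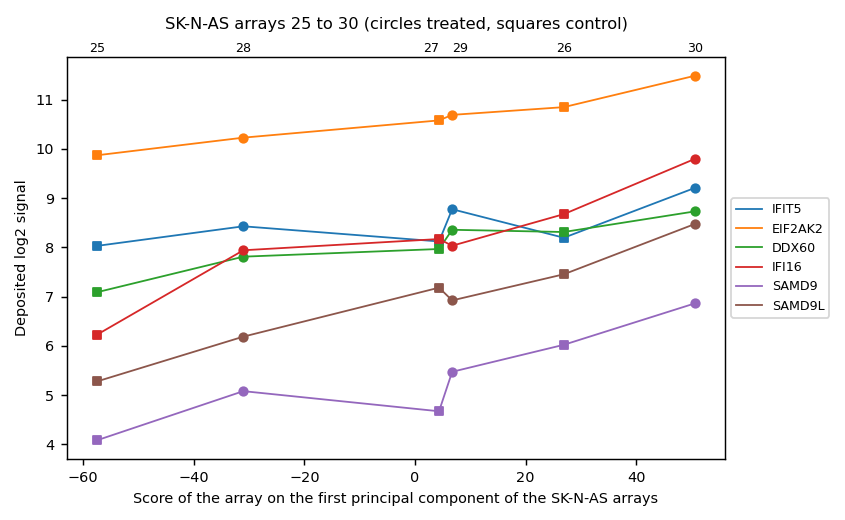
Deposited log2 signal of the 6 members that were lowest in control array 25 and highest in treated array 30, against the score of each SK-N-AS array on the first principal component of all tested probe sets. Array numbers stand along the top, circles are treated and squares control arrays, and the lines join the arrays of a gene in order of the score.

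The genes that carry the interferon signal were read in the same fits. The 30 pathway genes analysed were listed by role. All 8 interferon ligands, IFNA1, IFNA2, IFNB1, IFNK, IFNG, IFNL1, IFNL2 and IFNL3, were below the negative controls on all 10 arrays, between 2.45 and 6.03. The receptor chains IFNAR1 and IFNAR2 were above them on all 10. IFNAR1 had 8.72, 9.58 and 9.80 in treated and 8.57, 9.93 and 9.30 in control SK-N-AS arrays, against 10.44 and 10.51 in treated and 10.74 and 10.54 in control SK-N-FI arrays. IFNAR2 had 10.34, 10.15 and 10.28 in treated and 10.19, 9.86 and 10.25 in control SK-N-AS arrays, against 10.78 and 10.57 in treated and 10.57 and 10.64 in control SK-N-FI arrays. Their differences between the lines changed sign with the scaling, at 0.58 ± 0.36 in treated and 0.34 ± 0.36 in control arrays (log2, SE; -1.11 and -1.37 on deposited values) for IFNAR1 and 1.21 ± 0.21 in treated and 1.14 ± 0.21 in control arrays (log2, SE; -0.42 and -0.51 on deposited values) for IFNAR2.

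Of the kinases, JAK1 was above the negative controls on all 10 arrays, with 9.94, 10.50 and 10.69 in treated and 9.90, 10.47 and 10.66 in control SK-N-AS arrays, against 10.90 and 11.01 in treated and 10.68 and 11.39 in control SK-N-FI arrays. Its difference of 1.04 ± 0.30 in treated and 0.92 ± 0.30 in control arrays (log2, SE; -0.58 and -0.69 on deposited values) also turned sign with the scaling. TYK2 had 7.74, 7.93 and 7.81 in treated and 8.42, 8.03 and 7.67 in control SK-N-AS arrays, against 8.46 and 8.30 in treated and 7.20 and 8.16 in control SK-N-FI arrays, and its difference was 0.96 ± 0.30 in treated and 1.77 ± 0.30 in control arrays (log2, SE; -0.55 and 0.36 on deposited values). JAK2, the second kinase of the interferon-γ receptor, was lower in SK-N-AS, with 4.18, 4.58 and 4.27 in treated and 4.53, 3.91 and 4.78 in control SK-N-AS arrays, against 7.52 and 7.66 in treated and 7.96 and 7.86 in control SK-N-FI arrays, a difference of measured signals of -2.47 ± 0.28 in treated and -2.63 ± 0.28 in control arrays (log2, SE; -3.25 and -3.50 on deposited values; largest adjusted p of the 4 fits 2.20e-05). JAK2 was below the negative controls on all 6 SK-N-AS arrays and on 1 of 2 treated SK-N-FI arrays, so its fold has only a bound, of at least 1.62-fold lower in treated and 1.87-fold in control arrays on deposited values and none when quantile normalized.

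On quantile-normalized values limma called 9 of the 30 pathway genes higher and 2 lower in SK-N-AS in treated arrays and 9 and 3 in control arrays. Of all probe sets it called 23.4% higher and 22.2% lower in treated arrays, and 23.9% and 22.8% in control arrays. On deposited values the split turned, to 4 higher and 8 lower in treated and 4 and 9 in control arrays. That of all probe sets turned as well, to 11.2% higher and 47.8% lower in treated and 11.5% and 47.8% in control arrays. Of the 30, 4 were called higher and 2 lower in SK-N-AS in all 4 fits, beside the same 9.09% and 18.9% of all probe sets. The higher ones were IFNGR2, the second chain of the interferon-γ receptor (2.05 ± 0.21 in treated and 2.22 ± 0.21 in control arrays; log2, SE; 0.74 and 0.96 on deposited values), IL10RB, a chain of the interferon-λ receptor (2.41 ± 0.29 in treated and 2.27 ± 0.29 in control arrays; log2, SE; 1.13 and 0.97 on deposited values), and the transcription factors STAT3 (3.16 ± 0.25 in treated and 3.12 ± 0.25 in control arrays; log2, SE; 1.64 and 1.60 on deposited values) and IRF1 (2.84 ± 0.33 in treated and 2.85 ± 0.33 in control arrays; log2, SE; 2.14 and 2.14 on deposited values). IRF1, which binds the same response element, had 7.24, 6.81 and 6.65 in treated and 7.33, 6.53 and 6.83 in control SK-N-AS arrays, against 4.50 and 5.02 in treated and 4.90 and 4.63 in control SK-N-FI arrays. IRF1 was above the negative controls on 3 of 6 SK-N-AS arrays and IL10RB on all 6, and neither was on any SK-N-FI array. Their quantile-normalized bounds were at least 1.25-fold in treated and 1.59-fold in control arrays for IRF1 and at least 3.45-fold in treated and 3.95-fold in control arrays for IL10RB, and on deposited values at least 1.27-fold in treated and 1.52-fold in control arrays for IL10RB and none for IRF1. The lower ones were JAK2 and PIAS1, a negative regulator of the pathway (-4.07 ± 0.46 in treated and -4.24 ± 0.46 in control arrays; log2, SE; -5.35 and -5.54 on deposited values), and PIAS1 had 7.78, 8.21 and 9.69 in treated and 7.46, 8.65 and 8.48 in control SK-N-AS arrays, against 13.96 and 13.85 in treated and 13.71 and 13.76 in control SK-N-FI arrays. On quantile-normalized values alone, IFNAR2, JAK1, TYK2, IRF2 and PTPN2 were also called higher in treated and control arrays, and PTPN2 was called lower on deposited values, as were IFNL1, IFNAR1, IFNGR1, PTPN1 and PTPN11 in both comparisons. IFNA2, called lower in SK-N-AS in control arrays only, was at background. In the comparisons of treated with control cells, none of the 30 was called in either line (limma, 0 of 30, with 1 at an unadjusted p under 0.05 in each line), and the changes ran from -0.39 to 0.58 in SK-N-AS and from -0.56 to 0.70 in SK-N-FI.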

How the data were processed

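Expression was read on 10 arrays of SK-N-AS and SK-N-FI cells. The values are log2 signals that the authors deposited, made with RMA in Transcriptome Analysis Console 4.0.1.36 per the submitters' processing notes; each line's arrays sat on a scale of their own, as the array medians show. RMA sets the arrays of a batch to one distribution, so a shift of all genes within a line cannot be seen. Array signals carry no read depth, and the number of arrays limits the precision.

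The members and gene lists were chosen with earlier results of these data known. A probe set was tested if it was not a control, 21448 in all. Treated and control cells were compared within each line on the deposited values, and the lines on values quantile normalized over all 10 arrays, with deposited values as an alternative. Linear models were fitted in limma (version 3.58.1, R 4.3.3) with moderated variances. Benjamini-Hochberg adjustment covered all 21448 p-values, with calls under 0.05, and the fits were also tested on simulated data. Presence was judged on each array by the 612 negative controls and their 95th percentile. Genes were named by the smallest p-values within the list, by being called in all 4 fits of the lines, or by their role. The same-numbered SK-N-FI arrays did not deviate together (r = -0.171), so the numbers were not taken as pairs. Promoters were taken from RefSeq (GRCh38.p14), which matched 30 of 38 members.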

Additional observations from a re-analysis of the deposited data

How the results depend on the processing

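Each result was recomputed under the listed alternatives and under 3 added after seeing the data. The added ones were a call on both scalings, the omission of arrays 25 and 30, and the crossed SK-N-FI replicate numbers. On deposited values 9 members were called lower in SK-N-AS, in treated and in control arrays alike, against 5 quantile normalized. Of all probe sets, 47.8% were called lower in each comparison, against 22.2% in treated and 22.8% in control arrays quantile normalized. With dim probe sets left out, 2 members were called lower in each comparison and 17 were called in treated arrays. Of all 8462 probe sets left, 4914 were called in treated arrays, 2089 of them lower, and 5064 in control arrays, 2171 of them lower. By construction this filter drops members that were above the negative controls in SK-N-FI alone. At the 99th percentile of the negative controls, 2 members were above them on every SK-N-AS array and 3 on every SK-N-FI array, against 14 and 10 at the 95th. On deposited values the sign of the line difference turned for 9 of 38 members in treated and 9 in control arrays. Among those called when quantile normalized these were IFIT5 (-0.52), OAS3 (-0.74) and PARP9 (-0.57) in control arrays and OAS3 (-0.49) and PARP9 (-0.20) in treated arrays, where the scale of all genes also moved. Without arrays 25 and 30 in SK-N-AS, an alternative added after seeing the data, SAMD9 changed by -0.070 and DDX60 by -0.055. Both were lowest in array 25 and highest in array 30, so their changes were bound to fall. The cause was not tested. Leaving out 1 array at a time moved how many members, and how many of all probe sets, were called between the lines. Without a SK-N-FI array its group holds 1 array, so no count and no call of a gene is given for those fits. IFITM3 in SK-N-FI changed by -0.93 to 0.090 when 1 array was left out. With the replicate number of SK-N-FI as a block, 0 members were called, and 0 with the numbers crossed. The low number of arrays, and signal near the negative controls for most members, limit what could be detected.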
